A study of Mus musculus with 2 samples.

Results

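Large subunit cytoplasmic ribosomal proteins are the protein components of the larger of the ribosome's pair of subunits, the one that joins amino acids into a chain. The genes were chosen by name: a row was kept when its identifier mapped to a protein-coding mouse gene called Rpl followed by a digit, or Rplp0, Rplp1 or Rplp2, and names containing -ps were left out. This gave 52 genes of the 43346 Ensembl genes in the tables, of which 21474 were annotated as protein coding. The set held 46 standard genes and 6 related second copies that encode a variant of the same protein (Rpl3l, Rpl7l1, Rpl10l, Rpl22l1, Rpl36al and Rpl39l). Levels were not part of this rule, though the choice was made with earlier results of these data known.

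The study measured polyadenylated RNA by paired-end sequencing in erythroblasts, the nucleated precursors of red blood cells. The cells were primary Ter119+ cells (Ter119 is a surface marker of the red cell lineage) from the liver of mouse embryos at day 14.5, and male and female embryos were pooled. There was 1 group with 2 libraries, without a treatment, a genotype contrast or a control, and the labels name neither a strain nor the number of embryos. Both libraries carry the same donor entry and separate biosample entries, and they are called library 1 and library 2 here, so any difference between them is a difference between replicates of 1 condition.

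The tables held 51190555 expected counts in library 1 and 44256287 in library 2 over Ensembl genes. Levels are given as TPM, transcript abundance scaled to a fixed total per library, which the authors computed from expected counts and effective transcript length, so that levels of different genes can be compared. All 7 erythroblast markers examined were at 1 TPM or more in both libraries, with a summed level of 1318 and 1651 TPM. Marker sets of hepatocytes, macrophages, granulocytes and megakaryocytes summed to between 4.28 and 13.2 TPM in either library. Those of endothelium, progenitors and lymphoid cells summed to less than 1 TPM. In such bulk samples, fewer cells of a type and less RNA per cell cannot be told apart.

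Each ribosome carries its core proteins in equal numbers, apart from the stalk proteins P1 and P2, which are present in several copies. Erythroblasts depend on high ribosome output to make globin before the nucleus and later the ribosomes are lost. Inherited loss of a single copy of certain ribosomal protein genes causes Diamond-Blackfan anemia, a failure of red cell production. Mammalian ribosomal protein genes have left many processed pseudogenes, intronless copies made from their messenger RNA, and their messages typically begin with a C followed by a run of pyrimidines.

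Copies of this kind held reads that the sequence hardly separates from the parent gene. Rpl29, which encodes ribosomal protein eL29, and its copies Gm8210 and Gm13841 are shown first, because the level of Rpl29 turns on them. Rpl29 lies at chr9:106429454-106431568 (plus strand) and has 4 exons in the coding transcript used here, while Gm8210 lies at chr1:43189156-43189638 (plus strand) and Gm13841 at chr5:115801677-115802159 (minus strand) in mm10. Over the 480 bases of the Rpl29 coding sequence, each copy differed from the gene at 3 bases (99.4% identity). The lines below give coding positions 13 to 72, counted from the A of the start codon, the first 60-base window with as many differences as any other, with the single differing base in capitals. The Rpl35 pair is shown beside it, since Gm2000, annotated as protein coding at chr1:156366040-156366484, differed from Rpl35 at 1 of 369 coding bases, and the window covers positions 58 to 117.
Rpl29: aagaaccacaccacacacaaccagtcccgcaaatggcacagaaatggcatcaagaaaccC
Gm8210: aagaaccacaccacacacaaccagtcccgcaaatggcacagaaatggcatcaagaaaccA
Gm13841: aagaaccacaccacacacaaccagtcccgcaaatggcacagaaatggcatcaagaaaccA
Rpl35: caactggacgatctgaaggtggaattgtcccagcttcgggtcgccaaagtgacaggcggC
Gm2000: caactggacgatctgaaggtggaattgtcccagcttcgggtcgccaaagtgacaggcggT

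The start sites of the genes were examined for the pyrimidine run. The table of starts (RefSeq, GRCm38.p6) covered 40 of the 52 genes, and the letters CTTTC, a motif chosen after the sequences had been looked at, were sought on both strands in the 30 bases around each start (15 before and 15 from it on). On the sense strand the motif was present at 13 of the 40 genes (32.5%), against 4.76% of the 27025 genes in the table and 6 of 26 small subunit genes (23.1%). On the opposite strand it was present at 2 of the 40 (5.0%), against 4.21% of all genes. The 13 genes with the motif had a median of 480 TPM and the 27 without it 24.5 TPM, with wide overlap (0.06 to 1907 TPM and 0 to 2182 TPM). The genes without it include all of the low second copies except Rpl39l, which lowers their median. The high genes Rpl41 and Rplp0 lack the motif, and the lower genes Rpl15, Rpl35a and Rpl39l have it. A match describes the letters only. Examples of high genes with the motif (capitals) and of low genes without it follow, with the sequence reading in the direction of transcription; Rpl28 is at chr7:4792950-4792979 (plus), Rpl18 at chr7:45718056-45718085 (plus), Rplp2 at chr7:141447636-141447665 (plus), Rpl5 at chr5:107900513-107900542 (plus) and Rpl9 at chr5:65391417-65391446 (minus).
Rpl28: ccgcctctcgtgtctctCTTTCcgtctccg
Rpl18: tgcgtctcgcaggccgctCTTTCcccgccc
Rplp2: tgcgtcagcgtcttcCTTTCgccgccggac
Rpl5: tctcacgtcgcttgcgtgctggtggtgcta
Rpl9: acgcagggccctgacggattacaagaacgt

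Nearly all large subunit genes were on, at very unequal levels. The 46 standard genes spanned 2266-fold by mean TPM of the gene alone and 838-fold with sequence copies of each gene counted in, and levels below are those of the gene alone unless copies are named. Of the 52 genes, 48 were at 1 TPM or more in both libraries, where 20% of all protein-coding genes reached that level. The 4 below it were second copies (Rpl7l1, Rpl39l, Rpl3l and Rpl10l), so that all 46 standard genes reached it. Together the 52 genes held 16184 TPM in library 1 and 19223 TPM in library 2, which is 1.62% and 1.92% of all TPM (1.77% ± 0.215, SD, n = 2). Globin messages fill most of these libraries, and outside the globin genes the share was 11.96% ± 0.544 (SD, n = 2). Among protein-coding genes ordered by mean TPM, 15 members stood in the top 100 and 35 in the top 1000.

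Per gene, mean TPM was 1.63 times that of the 34 small subunit genes in library 1 and 1.27 times in library 2. The median ran the other way: it was 36.6 TPM for the large subunit and 105 TPM for the small subunit. Without the 6 second copies the large subunit median was 44.6 TPM. Sequence copies of small subunit genes were not looked for. Among the small subunit genes, Rps15, Rps26 and Rps28 were highest with mean levels of 1374, 1211 and 577 TPM. The 48 genes for large subunit proteins of the mitochondrial ribosome had a median of 3.73 TPM, with 38 at 1 TPM or more in both libraries. A few very high members thus carried the large subunit mean: the highest gene held 24.7% of the members' TPM, the highest 3 held 48.1% and the highest 10 held 81.4% ± 1.70 (SD, n = 2). The 13 members with a mean level under 10 TPM together held 0.328%.

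**Figure D1:**
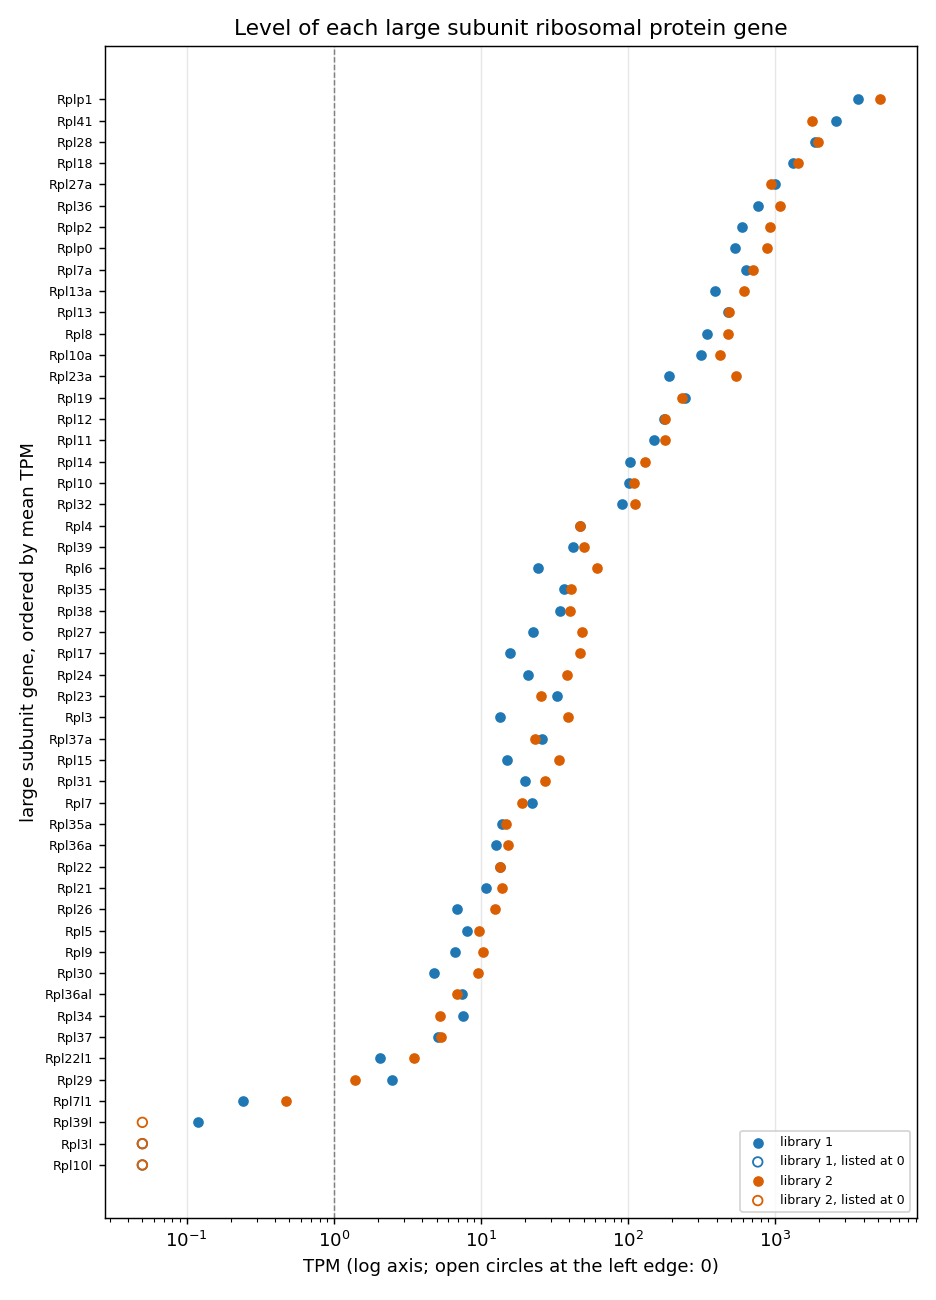
TPM (log axis) of the genes in library 1 (blue) and library 2 (orange), ordered by mean level, with genes listed at 0 as open circles at the left edge and 1 TPM as a dashed line; 1 gene of the set is not drawn. Rplp1 stands at the top with 3661 and 5130 TPM, and the order of the genes is much the same in both (Spearman's coefficient 0.980 over 52 genes).

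The order of the genes was stable between the libraries. Spearman's coefficient between them was 0.980 over the 52 genes and 9 of the 10 highest genes were shared, as a description of genes that are not independent replicates. When counts were divided by full transcript length in place of effective length, 9 of the 10 highest genes were again the same. By level, 4 genes had a mean of 1000 TPM or more, 17 lay between 100 and 1000, 18 between 10 and 100, 9 between 1 and 10 and 4 below 1. The middle of the 46 standard genes, between the quartiles, spanned 21.4 to 401 TPM, an 18.7-fold range that compares with 12.5-fold among small subunit genes.

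The stalk, a flexible arm that recruits the translation factors which hydrolyse GTP, was the most abundant structural group, with a median of 733 TPM over its 4 genes. Rplp1, which encodes stalk protein P1, was the highest of all members with 3661 TPM in library 1 and 5130 TPM in library 2. Rplp2, which encodes its partner P2, had 593 and 917 TPM. Rplp0, the base to which both bind, had 536 and 884 TPM. Rplp1 therefore exceeded Rplp2 and Rplp0 in each library by more than the libraries differed. Rpl12, which sits beside the stalk base, was lower than these with 176 and 179 TPM.

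Rpl5 and Rpl11 bind 5S ribosomal RNA as a particle that also restrains Mdm2, the inhibitor of p53. Rpl11 had 151 and 179 TPM. Rpl5 had 8.10 and 9.72 TPM. The levels of these partners did not overlap, and Rpl11 was 18.6 and 18.4 times as high as Rpl5. Copies held 36.6% and 37.8% of the counts of Rpl5 plus copies, and with copies counted in for both genes the ratio was 9.59 in library 1 and 11.4 in library 2.

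The 8 genes of the exit tunnel, through which the new chain leaves, had a median of 42.5 TPM. Rpl23a, a docking point for factors that meet the new chain, had 191 and 545 TPM, and 564 and 1013 TPM with its copies. Rpl19 had 242 and 231 TPM. Rpl4, whose loop lines the tunnel, had 47.1 TPM in both libraries. The remaining exit genes were Rpl39 (42.1 and 50.5 TPM), Rpl35 (36.9 and 40.7 TPM), Rpl17 (15.7 and 47.5 TPM), Rpl31 (19.95 and 27.3 TPM) and Rpl26 (6.87 and 12.4 TPM). Rpl26 was the lowest of them when the gene was taken alone, but with copies it had 42.1 and 63.2 TPM, above Rpl17 (20.6 and 55.4 TPM) and Rpl31 (20.6 and 28.4 TPM) with theirs.

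On the face that meets the small subunit, Rpl41, a short basic peptide and the second highest member, had 2598 and 1767 TPM. Rpl10, which is loaded late and completes the tRNA sites, had 102 and 110 TPM. Rpl24, which forms a bridge to the small subunit, had 20.9 and 38.5 TPM. Rpl23 had 32.7 and 25.7 TPM, so the 3 genes after Rpl41 were at least an order of magnitude lower than it in each library. The other genes among the 10 highest were Rpl28 (1866 and 1949 TPM), Rpl18 (1319 and 1430 TPM), Rpl27a (996 and 941 TPM), Rpl36 (769 and 1071 TPM), Rpl7a (634 and 706 TPM) and Rpl13a (390 and 615 TPM). Of the genes outside these groups, Rpl13, Rpl8, Rpl10a, Rpl14 and Rpl32 had mean levels from 480 down to 101 TPM. Rpl6, Rpl38, Rpl3 and Rpl37a lay between 24.5 and 43.0 TPM, Rpl7, Rpl36a, Rpl22 and Rpl21 between 12.3 and 20.7 TPM, and Rpl9, Rpl30, Rpl34 and Rpl37 between 5.25 and 8.47 TPM. The 18 genes whose proteins have relatives in bacteria had a median of 76.5 TPM and the other 28 standard genes 40.2 TPM.

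All 9 genes in the list for Diamond-Blackfan anemia were detected. Their median was 24.4 TPM, beside 36.6 TPM for all members and 44.6 TPM for the 46 standard genes. These medians are of the genes alone, and some of the 9, such as Rpl5 and Rpl35, shared many counts with copies. They covered nearly the whole range, from Rpl18 near the top to Rpl5 near the bottom. Rpl27 had 22.7 and 48.9 TPM. Rpl15 had 15.0 and 33.8 TPM. Rpl35a had 14.0 and 14.7 TPM. These 3 lay well below Rpl11 and Rpl18 and above Rpl5.

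The second copies were low, and the share each took of its pair differed. Rpl36al, an intronless relative of Rpl36a, had 7.43 and 6.87 TPM against 12.6 and 15.3 TPM for Rpl36a, or 37.1% and 31% of the pair. Rpl22l1, the relative of Rpl22, had 2.06 and 3.50 TPM against 13.4 TPM for Rpl22 in both libraries, or 13.3% and 20.7%. These were the only second copies at 1 TPM or more. Rpl7l1 held 1.06% and 2.41% of its pair with Rpl7, whose own level was 22.4 and 19.0 TPM. Rpl39l, described mainly in testis, was seen as 8 counts in library 1 only, and in library 2 a floor of 3 counts would be 0.164% of the pair's counts. Rpl3l, the form of heart and skeletal muscle, and Rpl10l, the form of male germ cells, had no count in either library. A floor of 3 counts would be 0.203% and 0.0983% of the pair's counts for Rpl3l and 0.0468% and 0.0499% for Rpl10l, which covers counting error only. The deposited posterior mean TPM, which was above 0 for both genes although no read was counted, put Rpl3l at 0.295% and 0.129% of its pair.

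Of 40 factors that assemble the large subunit, 22 were at 1 TPM or more in both libraries, with a median of 1.57 TPM. The highest were Nop53 (34.9 TPM ± 2.55), Eif6 (24.5 TPM ± 7.51) and Rrp1 (15.3 TPM ± 2.23; SD, n = 2). The lowest was Mdn1, the large ATPase that strips factors from the precursor, at 0.015 TPM.

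The 6 lowest genes by mean level were Rpl22l1, Rpl29, Rpl7l1, Rpl39l, Rpl3l and Rpl10l, and Rpl29 was the only standard gene in that group. Rpl29 had 2.49 and 1.39 TPM, from 141 and 62.7 expected counts. Its copies Gm8210 and Gm13841, shown above, had 339 TPM each in library 1 and 516 TPM each in library 2. The 10 copies of Rpl29 together held 99.4% and 99.8% of the counts of gene plus copies. With them, the level was 681 TPM in library 1 and 1034 TPM in library 2, which moved Rpl29 from rank 48 to rank 7.

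Copies were defined as genes with at least 50% of their 31-base words in a large subunit gene. There were 160 genes of pseudogene type, belonging to 40 of the 52 members, with up to 15 for 1 member (Rpl21). They held 47067 and 52894 expected counts, or 7.54% ± 0.452 (SD, n = 2) of the members' own counts. Gm8210 and Gm13841 alone accounted for 48.0% and 51.6% of that. When copies of other gene types such as Gm2000 were added, a step chosen after seeing the data, 167 genes held 8.59% ± 0.406.

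Expected counts are fractions where reads matching several genes were divided. Among the 42 members with such a copy, 36 had a count that was not whole within 0.02 in library 1, and for 29 of these the sum of gene and copies was whole. In library 2 it was 27 of 36. The sum over gene and copies was therefore fixed by the reads for most of these genes, and the division within it was an estimate.

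Copies held more than the gene itself in both libraries for 4 members. Rpl26 had 6.87 and 12.4 TPM alone, and 42.1 and 63.2 TPM with its 3 copies. Rpl35 had 36.9 and 40.7 TPM alone, and 118 and 246 TPM with Gm2000 and others. Rpl21 had 10.8 and 13.8 TPM alone, and 44.4 and 110 TPM with its copies. Rpl29 was the fourth and moved farthest. Rpl23a followed, with copies at 60.3% of the total in library 1 and 39.3% in library 2. For 34 of the 52 members copies held less than 10% in both libraries, among them all of the 5 highest genes.

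**Figure D2:**
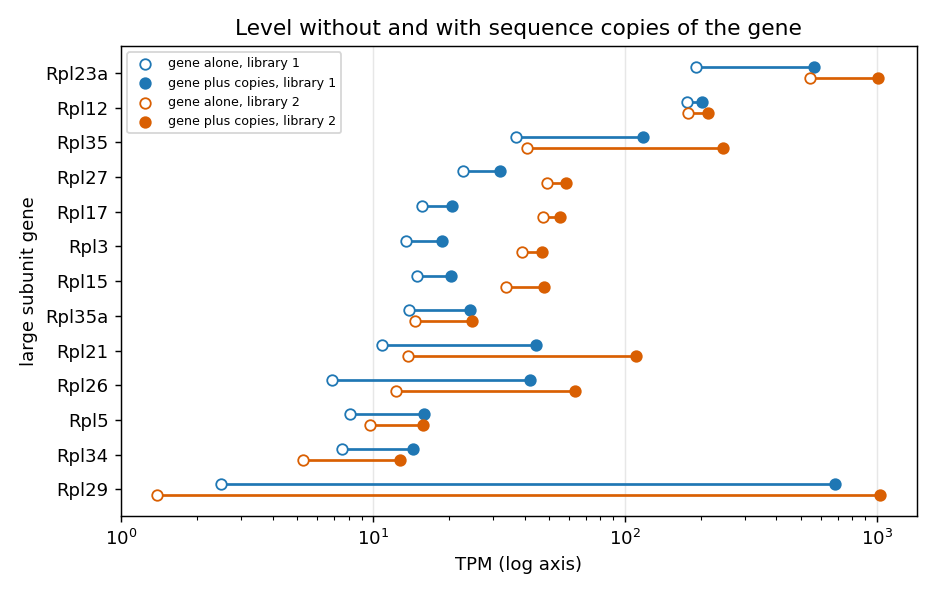
TPM (log axis) of the 13 genes whose copies held over 10% of the counts of gene plus copies in both libraries, for the gene alone (open circles) and with its copies (filled circles), in library 1 (blue) and library 2 (orange). Rpl29 moves from 2.49 and 1.39 TPM to 681 and 1034 TPM, while Rpl12 and Rpl27 move little.

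With copies included, the quartiles of the 46 standard genes lay at 30.1 and 501 TPM, and the low end was held by Rpl37, at 5.12 and 5.38 TPM. The transcribed pseudogene Rpl37rt, which shared 39.4% of its words with Rpl37 and so was not counted as a copy, had 2.39 and 3.21 TPM. With it, a step chosen after seeing the data, Rpl37 had 7.51 and 8.59 TPM, Rpl30 became the lowest standard gene and the span was 594-fold. Rpl34 had 7.53 and 5.28 TPM alone and 14.4 and 12.8 TPM with copies, and Rpl5 had 15.9 and 15.8 TPM with copies. Unequal levels among the members thus remained when the copies were counted in.

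The genes were ordered in part along the base composition of their coding sequence. Among the 46 standard genes, Spearman's coefficient between level and the percentage of G and C in the coding sequence was 0.61, and 0.61 and 0.62 in libraries 1 and 2 taken alone. It was lower, at 0.43, with the composition of the whole representative transcript and 0.54 with the mean over a gene's transcripts. The 11 genes under 50% had a median of 14.3 TPM, none of them at 100 TPM. The 23 genes from 50% to 55% had a median of 47.1 TPM, with 11 at 100 TPM or more. The 12 genes at 55% or more had a median of 606 TPM, with 10 at 100 TPM or more. Rpl29 was the outlying low gene of that class at 57.3%, and with copies counted in, the coefficient was 0.72.

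The same coefficient was 0.006 for transcript length and -0.19 for the number of pseudogene copies. The coefficient with composition was 0.73 over the 34 small subunit genes and 0.76 over 47 genes of the mitochondrial large subunit. Over the 4282 protein-coding genes at 1 TPM or more in both libraries it was 0.19. These coefficients describe genes that share the same libraries and are given without a test. For 10 of the 46 genes the coding transcript used was shorter in coding sequence than the longest annotated, and with the longest ones the coefficient was 0.66. Base composition also acts on library amplification, and its part in the relation was not tested.

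**Figure D3:**
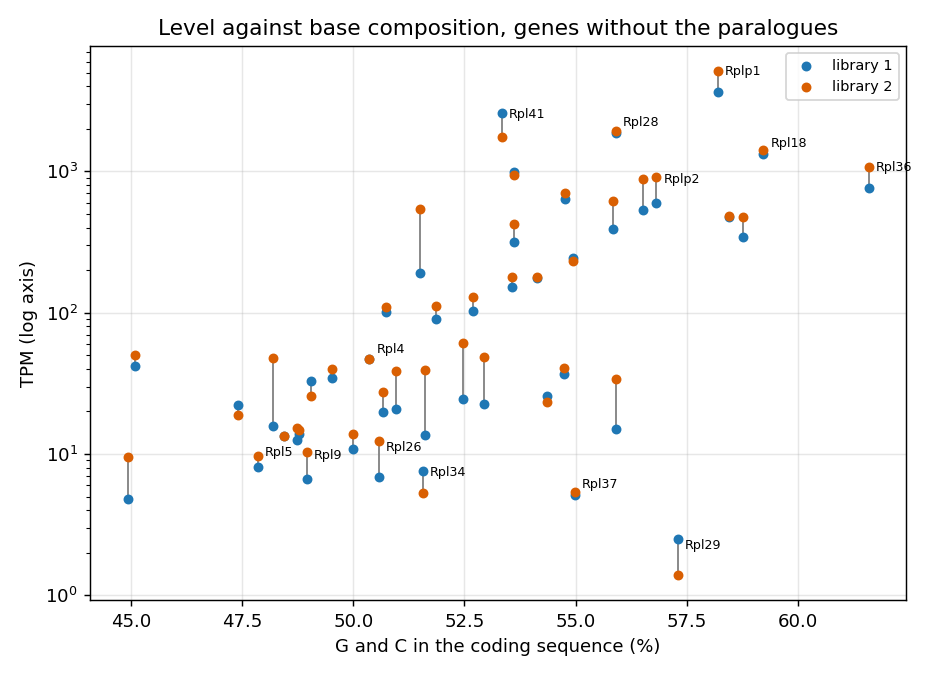
TPM (log axis) against the percentage of G and C in the coding sequence for the standard genes (1 is not drawn), with library 1 in blue, library 2 in orange and a grey line joining the values of 1 gene. Levels are higher toward the right (coefficient 0.61), with Rpl29 low at the right, and with Rpl37 low and Rpl41 high in the middle.

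The first 20 codons annotated in the transcripts used show the contrast in composition between the highest gene and 2 low ones, with G and C in capitals. For Rpl5 the transcript was Rpl5-206, whose annotated start need not be that of the full-length protein. The bases shown for Rpl5 may therefore lie further inside its full coding sequence and are then not a like stretch to the others. Rplp1 has 37 of 60 bases as G or C, Rpl9 has 26 and Rpl5 has 23 in the transcripts used. These genes are examples, and other genes go against the contrast in this stretch. The lower genes Rpl23 and Rpl24 also have 37 and Rpl37 has 34, while the high genes Rpl41 and Rplp0 have 31.
Rplp1: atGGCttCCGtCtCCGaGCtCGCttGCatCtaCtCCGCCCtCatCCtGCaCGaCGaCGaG
Rpl9: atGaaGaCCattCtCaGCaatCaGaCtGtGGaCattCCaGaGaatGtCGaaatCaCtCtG
Rpl5: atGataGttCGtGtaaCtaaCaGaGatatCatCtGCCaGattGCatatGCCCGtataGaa

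Several members carried most of their signal on transcripts that were not annotated as protein coding or were absent from the annotation used here. Over all members, transcripts annotated as protein coding held 78.9% ± 1.07 of the TPM, other transcripts, those marked for nonsense-mediated decay included, 12.4%, and transcripts absent from the GENCODE M21 annotation 8.74% (n = 2). Retained-intron transcripts made up 7.91%. For 9 of the 50 members with counts in library 1, coding transcripts held under 50% in both libraries. They held 1.44% and 2.85% in Rpl12, 2.29% and 2.34% in Rpl23, and 4.89% and 6.28% in Rpl13a. In Rpl27a the coding share was 6.51% and 4.67%, where a transcript annotated for nonsense-mediated decay (464 and 467 TPM) and a retained-intron transcript (464 and 428 TPM) took nearly all.

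The coding share was 6.48% and 9.11% in Rpl35, 11.7% and 33.0% in Rpl18, and 40.7% and 45.3% in Rpl10a. It was 35.9% and 2.32% in Rpl22 and 25.4% and 2.57% in Rpl22l1. In Rpl18 and Rpl13a the largest part lay on transcripts absent from the later annotation, whose class was not given there. The class of a transcript rests on its share of reads common to several transcripts, which these short fragments (a mean length of about 143 and 137 bases, as the gap between full and effective gene length gives it) often do not separate.

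**Figure D4:**
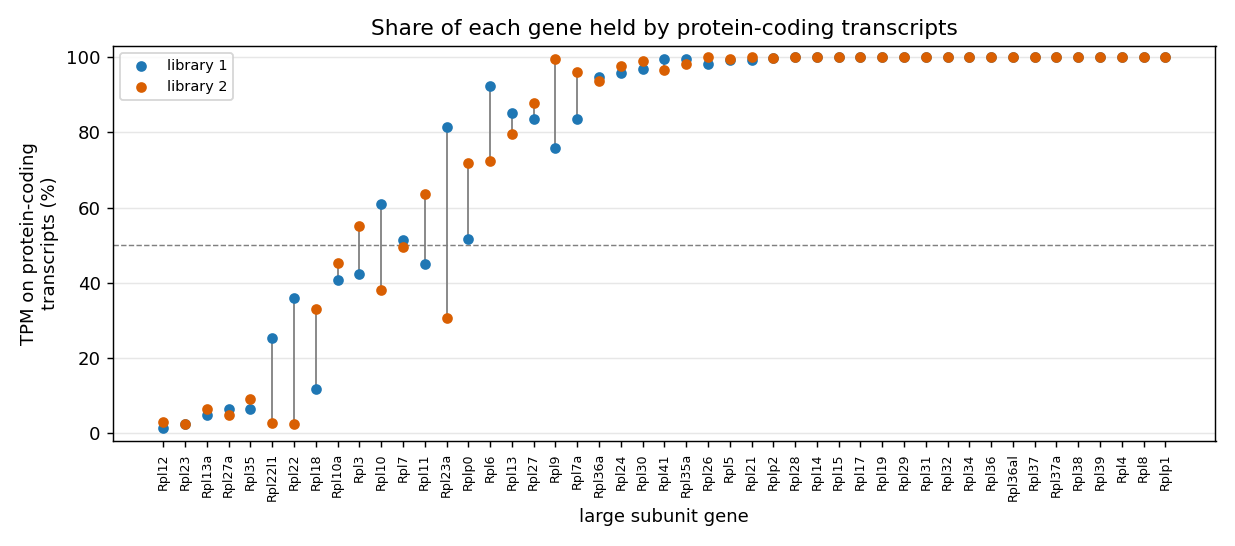
Percentage of each gene's TPM on transcripts annotated as protein coding, for the genes at 1 TPM or more in both libraries (1 is not drawn), in library 1 (blue) and library 2 (orange), with 50% as a dashed line. Genes at the left, from Rpl12 to Rpl10a, lie below 50% in both libraries, and Rpl23a is split widely with 81.5% and 30.7%.

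In Rpl41 and Rpl23a the libraries differed more in transcripts than in the gene. Rpl41-203 (437 bases) had 2555 TPM in library 1 and 19.2 TPM in library 2, while Rpl41-201 (582 bases) had 13.4 and 1669 TPM. Both transcripts hold the same 75-base coding sequence, so the near-complete exchange in estimated levels lay outside it. In Rpl23a the coding transcript Rpl23a-201 had 156 and 167 TPM, whereas the retained-intron transcript Rpl23a-202 had 32.7 and 375 TPM. As the reads were divided, the gap between the libraries at gene level for Rpl23a lay on the retained-intron transcript. The division of reads between transcripts was an estimate for both Rpl41 and Rpl23a, as was that between Rpl23a and its copies.

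Counts scaled by trimmed mean of M-values (TMM) were compared between the libraries with an exact 2-sided binomial test and Benjamini-Hochberg adjustment over 10955 genes with at least 10 counts. The test compares these libraries, covers counting error only and says nothing of a condition. Of the 49 members tested, 29 were called higher in library 2 at an adjusted p under 0.05, where 22.9% of all genes were, 13 were called higher in library 1, where 22.0% were, and 7 were not called. Among genes with 1000 counts or more over both libraries, a group chosen after seeing the data, it was 24 of 37 members against 36.6% of genes, and 11 of 37 against 33.9%. The median log2 ratio of library 2 over library 1 in scaled counts (CPM, reads scaled to a fixed library total) was 0.16 for members and -0.004 for all genes at a mean of 1 CPM. Small subunit genes had a median of 0.17, with 18 of 34 called higher in library 2 and 9 in library 1.

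Most gaps were small. A difference of 1.5-fold or more was reached by 13 members in favour of library 2 (10.4% of all genes at a mean of 1 CPM) and by 2 in favour of library 1 (9.33% of all genes). Rpl17 differed most, with 19.1 scaled CPM in library 1 and 52.0 in library 2 (ratio 2.73, adjusted p = 1.24e-165, exact test). Rpl23a followed with 155 and 414 scaled CPM (ratio 2.68). Rpl3, whose protein lies near the catalytic centre, had 29.0 and 68.7 scaled CPM (ratio 2.37). The next were Rpl30, Rpl6 and Rpl27, with ratios of 2.31, 2.14 and 1.89. These 6 genes were of low or middle level apart from Rpl23a.

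Toward library 1 the gaps were smaller. Rpl29 had 2.76 scaled CPM in library 1 and 1.42 in library 2 (ratio 0.513, adjusted p = 3.41e-05, exact test) and Rpl34 had 6.49 and 4.14 scaled CPM (ratio 0.638, adjusted p = 4.60e-06, exact test). Rpl23, Rpl7, Rpl5 and Rpl37a followed with ratios of 0.714, 0.748, 0.764 and 0.812. With copies counted in, the ratio of Rpl29 was 1.38, in the opposite direction, the only change of sign among the 49 genes. The ratio of Rpl23a became 1.75 with its copies, where Gm10132 had 3401 counts in library 1 and 0.05 in library 2. For Rpl35, not called alone (ratio 1.02), the ratio with copies was 1.81.

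**Figure D5:**
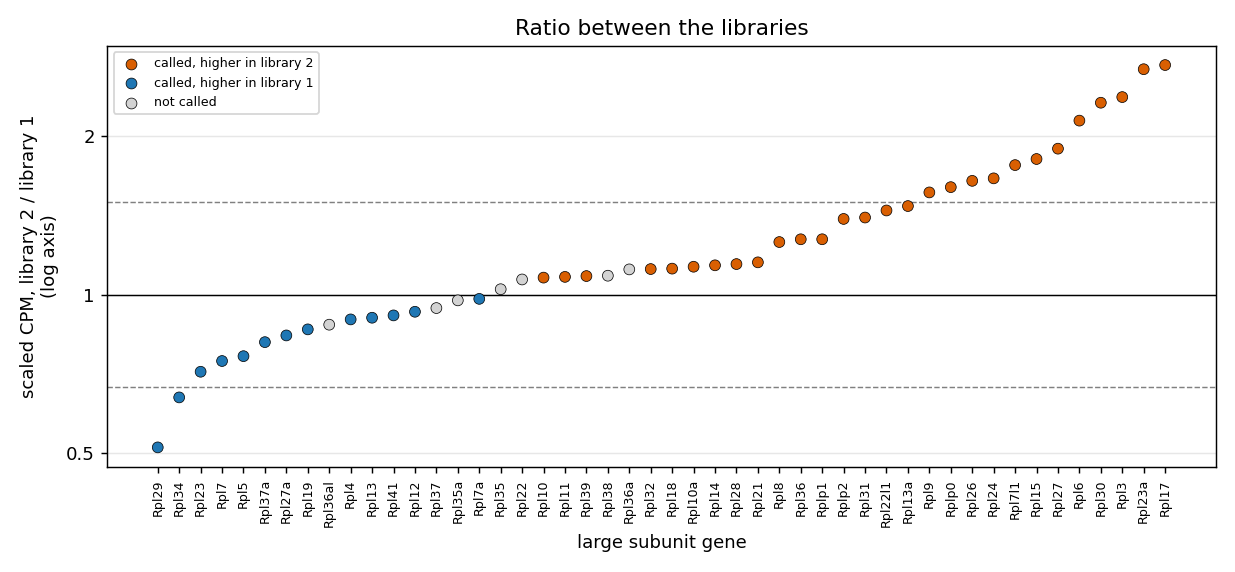
Ratio of scaled CPM in library 2 over library 1 (log axis) for the genes tested, ordered by ratio and without 1 gene that is not drawn, with the calls of the exact test in colour and 1.5-fold as dashed lines. The points run from 0.513 in Rpl29 to 2.73 in Rpl17, and more of them lie above the upper dashed line than below the lower one.

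By group, the calls were spread over the structure. Of the stalk genes, Rplp1, Rplp2 and Rplp0 were called higher in library 2 with ratios of 1.27, 1.39 and 1.60, and Rpl12 was called higher in library 1 with a ratio of 0.928. In the 5S particle, Rpl11 was called higher in library 2 (ratio 1.08) and Rpl5 higher in library 1. Of the 9 genes for Diamond-Blackfan anemia, 6 were called higher in library 2, Rpl5 higher in library 1, and Rpl35 and Rpl35a were not called. These calls rest on scaled counts. By TPM, all 4 stalk genes, both genes of the 5S particle and all 9 genes for Diamond-Blackfan anemia were higher in library 2. Over all genes, 9069 were higher by TPM in library 2 and 6328 in library 1. The direction for Rpl12 and Rpl5 therefore differed between scaled counts and TPM. Of the 40 assembly factors, 11 were called higher in library 2 (27.5%) and 10 higher in library 1 (25%), near the shares of all genes. Those shares, 22.9% higher in library 2 and 22.0% higher in library 1, are also the background for the stalk and Diamond-Blackfan calls, which rest on few genes. The 20 members with snoRNA genes inside their bounds on the same strand (39 snoRNA genes in all) had a median of 74.1 TPM. The 32 without had 24.5 TPM, and they include the second copies below 1 TPM. Since the strand setting was not given in the sources used here, reads of overlapping genes cannot be told apart.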

How the data were processed

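Polyadenylated RNA of 2 libraries was quantified on mm10 and GENCODE M4, as the deposited listing states. Neither the aligner nor the quantifier is named in the sources used here. The authors deposited expected counts, TPM, FPKM and, for transcripts, the percent of the gene each holds. Gene types, transcript classes and sequences were taken from GENCODE M21, which matched 42462 of 43346 identifiers. The members and lists were chosen with earlier results of these data known. Members named are the 10 highest and 6 lowest, all of the structural, disease and second-copy lists, the 6 largest ratios each way and those under 50% coding. Expected counts were rounded and scaled by TMM (edgeR 4.0.16), compared by an exact binomial test over all genes with at least 10 counts (scipy 1.17.1) and adjusted by Benjamini-Hochberg; log2 ratios used a pseudocount of 1 CPM. The test was checked on simulated counts with counting error only, which is the model it assumes. That check therefore says nothing of variation between replicates. The replicates are separate biosamples of 1 donor entry, so the spread may be partly technical. Coding transcripts are those with the highest summed TPM per gene. Alternatives were DESeq2 1.42.0 size factors and those listed in the closing section. Results on some genes are not reported here.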

Additional observations from a re-analysis of the deposited data

How the results depend on the processing

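The share of all TPM held by the members was 1.40% as a share of expected counts and 11.96% outside the globin genes. The ratio to the small subunit turned to 0.358 with medians in place of means. The coding share was 80.7% by expected counts. Counts on pseudogene-type copies came to 3.65% of the members' counts when 80% of words had to be shared, 9.19% by TPM and 8.59% with other gene types added. By posterior mean TPM, the share of the second copy was 0.212% for Rpl3l, 0.00952% for Rpl10l and 22.6% for Rpl22l1, and by expected counts 6.23% for Rpl7l1. The median log2 ratio between the libraries was 0.26 by TPM, beside 0.08 for all genes, and 0.25 as a mean, beside 0.01 for all genes. Under the planned and added alternatives, 38 other values moved by less than the spread between the libraries, by less than 1.5 times for counts of genes, or by at most 0.05 for the log2 ratio. Leaving out 1 of 2 libraries only returns the value of the other and says nothing about stability; the share of the second copy was then 1.06% or 2.41% for Rpl7l1 (mean 1.74%) and 0.284% or 0 for Rpl39l (mean 0.142%). The number of genes at 1 TPM or more was 48 in either library. With 2 libraries of 1 group, no error of a condition can be given, and outlying libraries cannot be tested. No paired analysis was possible because there is only 1 group.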
